A study of Homo sapiens with 18 samples.

Results

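The genes described here are 8 genes that are recurrently mutated in pancreatic cancer: BRAF, MAP2K4, TGFBR2, SMAD4, RNF43, GNAS, ARID1A and RB1. They were chosen by symbol, and all 8 were found among the 26485 gene symbols of the count files. RNA levels were measured by sequencing poly(A) RNA of 3 human pancreatic cancer cell lines, BxPC3, Panc327 and SUIT2, each given 100 nM THZ1 or the solvent DMSO for 6 h. Each line and treatment had 3 libraries, 18 in all. Whether the 3 libraries of a group were grown apart is not stated in the labels, and the p-values reflect the spread among these 18 samples alone, which may be technical. Each line is 1 line grown in culture without stroma, and its values stand for that line. THZ1 inhibits CDK7 covalently, the TFIIH kinase that acts on the tail of RNA polymerase II. CDK12 and CDK13 are further targets of the drug. The study asked how the drug changed gene expression in the 3 lines.

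The 8 genes stand for pathways that limit or drive the growth of pancreatic duct cells. BRAF passes the signal of activated RAS to MEK and ERK, and MAP2K4 is a kinase that activates the stress kinases JNK and p38. TGFBR2 is the receptor that binds TGF-beta and activates its partner TGFBR1, and SMAD4 is the shared partner of the SMAD proteins that this receptor pair phosphorylates. RNF43 removes Frizzled receptors from the cell surface and so limits Wnt signalling. GNAS encodes the alpha subunit of the stimulatory G protein that activates adenylyl cyclase, ARID1A is a DNA-binding subunit of SWI/SNF chromatin remodelling complexes, and RB1 holds back E2F transcription factors until cyclin-dependent kinases phosphorylate it. In pancreatic tumours TGFBR2, SMAD4, RNF43, ARID1A, MAP2K4 and RB1 are known for loss of function and BRAF and GNAS for activating change. RNA counts do not show the state of the DNA, and no variant was read here.

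Counts assigned to genes ranged from 5626146 to 8631273 per library, and 14011 genes had enough counts to be tested. Levels are given in CPM, counts scaled to a common library size with TMM factors, which sets the median gene near no change. The share of records with more than 1 alignment was 12% to 14.1% in both SUIT2 groups and in the other DMSO libraries, 21.9% to 23.4% in BxPC3 with THZ1 and 51.7% to 54.9% in Panc327 with THZ1, and its part in the changes below was not tested. Scaling to library size alone, in place of TMM, set the median gene at -0.35 on the log2 scale in BxPC3 and at -0.34 in Panc327 with THZ1, so the changes below are relative to the median gene. All 5 epithelial markers (KRT8, KRT18, KRT19, EPCAM and CDH1) were at 1 CPM or more in every group, with a summed level of 3718 to 8158 CPM. CDH1 was at 27.3 CPM in SUIT2 with DMSO, beside 678 in BxPC3 and 625 in Panc327. Summed levels were lower for 5 fibroblast markers (0.135 to 85.0 CPM), 5 immune markers (9.28 to 48.6 CPM) and 3 endothelial markers (2.32 to 18.6 CPM). They were also lower for 3 acinar markers (0.112 to 2.49 CPM) and 3 endocrine markers (0 to 0.711 CPM). DCN, INS and GCG were at 0 counts in every group. Other markers were not: in Panc327 COL1A1 was at 49.4 CPM with DMSO and 70.1 with THZ1, and VWF at 12.5 and 17.7. CD68 was at 9.30 to 44.9 CPM over the groups.

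The promoters of the 3 genes with the largest differences are shown first: RNF43 fell furthest with THZ1, and MAP2K4 and SMAD4 differed most between the lines. The sequences are from RefSeq on GRCh38.p14 and run 5′ to 3′ on the strand of the gene. Each begins 250 bases before a RefSeq start and ends before the first base that GENCODE 29 gives to an exon of that gene, so they are shorter than 250 bases. The SMAD4 stretch lies inside the annotated span of a longer transcript of that gene. Capitals mark the dinucleotide CG.
RNF43, chr17:58417596-58417784, minus strand: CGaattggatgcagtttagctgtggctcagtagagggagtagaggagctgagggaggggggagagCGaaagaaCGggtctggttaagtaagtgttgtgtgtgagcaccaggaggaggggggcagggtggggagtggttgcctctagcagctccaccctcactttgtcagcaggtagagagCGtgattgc
MAP2K4, chr17:12020627-12020823, plus strand: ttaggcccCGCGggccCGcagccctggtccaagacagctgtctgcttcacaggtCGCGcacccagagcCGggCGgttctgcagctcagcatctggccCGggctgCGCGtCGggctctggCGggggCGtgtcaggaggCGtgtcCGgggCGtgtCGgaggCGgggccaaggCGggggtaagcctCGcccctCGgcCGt
SMAD4, chr18:51029963-51030099, plus strand: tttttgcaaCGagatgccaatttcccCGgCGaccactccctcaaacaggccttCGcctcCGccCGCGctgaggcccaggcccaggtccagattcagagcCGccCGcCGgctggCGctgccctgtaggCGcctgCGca
The RNF43 stretch held 4 CG in 189 bases, or 2.12 per 100 bases. The MAP2K4 stretch held 22 CG in 197 bases, or 11.2 per 100, and the SMAD4 stretch held 13 in 137 bases, or 9.49 per 100. The median over 35116 promoter windows of 250 bases was 4.40 per 100 bases, so RNF43 lay below it and the other two above it. The motif TATAAA, searched on both strands, was in none of these 3 stretches. It was also in none of the full windows of 250 bases from which they were cut. Of all windows of 250 bases, 10.7% held it.

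With DMSO the lines differed in most of the 8 genes. The comparison of Panc327 with BxPC3 called 7 of 8 genes, 2 higher in Panc327 (MAP2K4 and SMAD4) and 5 lower (BRAF, TGFBR2, GNAS, ARID1A and RB1), where 79.3% of all genes tested were called (40.7% higher and 38.6% lower). SUIT2 against BxPC3 called 7 of the 7 genes that could be compared, against 78.6% of all genes (39.7% higher and 38.9% lower), with MAP2K4, TGFBR2, RNF43, GNAS and RB1 higher in SUIT2 and BRAF and ARID1A lower. Panc327 against SUIT2 called 6 of 8 genes, against 82.5% of all genes (42.9% higher and 39.6% lower), with MAP2K4, SMAD4 and ARID1A higher in Panc327 and TGFBR2, GNAS and RB1 lower. These shares were near the background of the lines, and the comparisons share their DMSO libraries. In bulk RNA, fewer cells that express a gene and less RNA of it per cell cannot be told apart. A call is an adjusted p under 0.05 by edgeR's quasi-likelihood test over all genes tested.

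THZ1 changed most of the genes in BxPC3 and Panc327 and 1 of them in SUIT2. In BxPC3 5 of the 7 genes with enough counts were called, 4 higher (BRAF, MAP2K4, GNAS and ARID1A, of which BRAF and ARID1A turned lower with library sizes alone, at -0.093 and -0.23) and RNF43 lower, where 69.4% of all genes were called (35.2% higher and 34.1% lower). In Panc327 all 8 were called, 3 higher (BRAF, GNAS and RB1) and 5 lower (MAP2K4, TGFBR2, SMAD4, RNF43 and ARID1A), where 73.4% of all genes were called (35.6% higher and 37.8% lower). In SUIT2 RB1 was called lower and 6 of 7 were not called, where 14.6% of all genes were called (6.95% higher and 7.64% lower). With library sizes alone the BxPC3 calls were 2 higher and 4 lower and the Panc327 calls 1 higher and 5 lower. Over all genes, 50.8% of the calls in BxPC3 and 48.5% of those in Panc327 were higher with TMM, and 26.8% and 31.0% with library sizes alone. The list counts below, with either scaling, stand beside these shares of all genes.

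**Figure D1:**
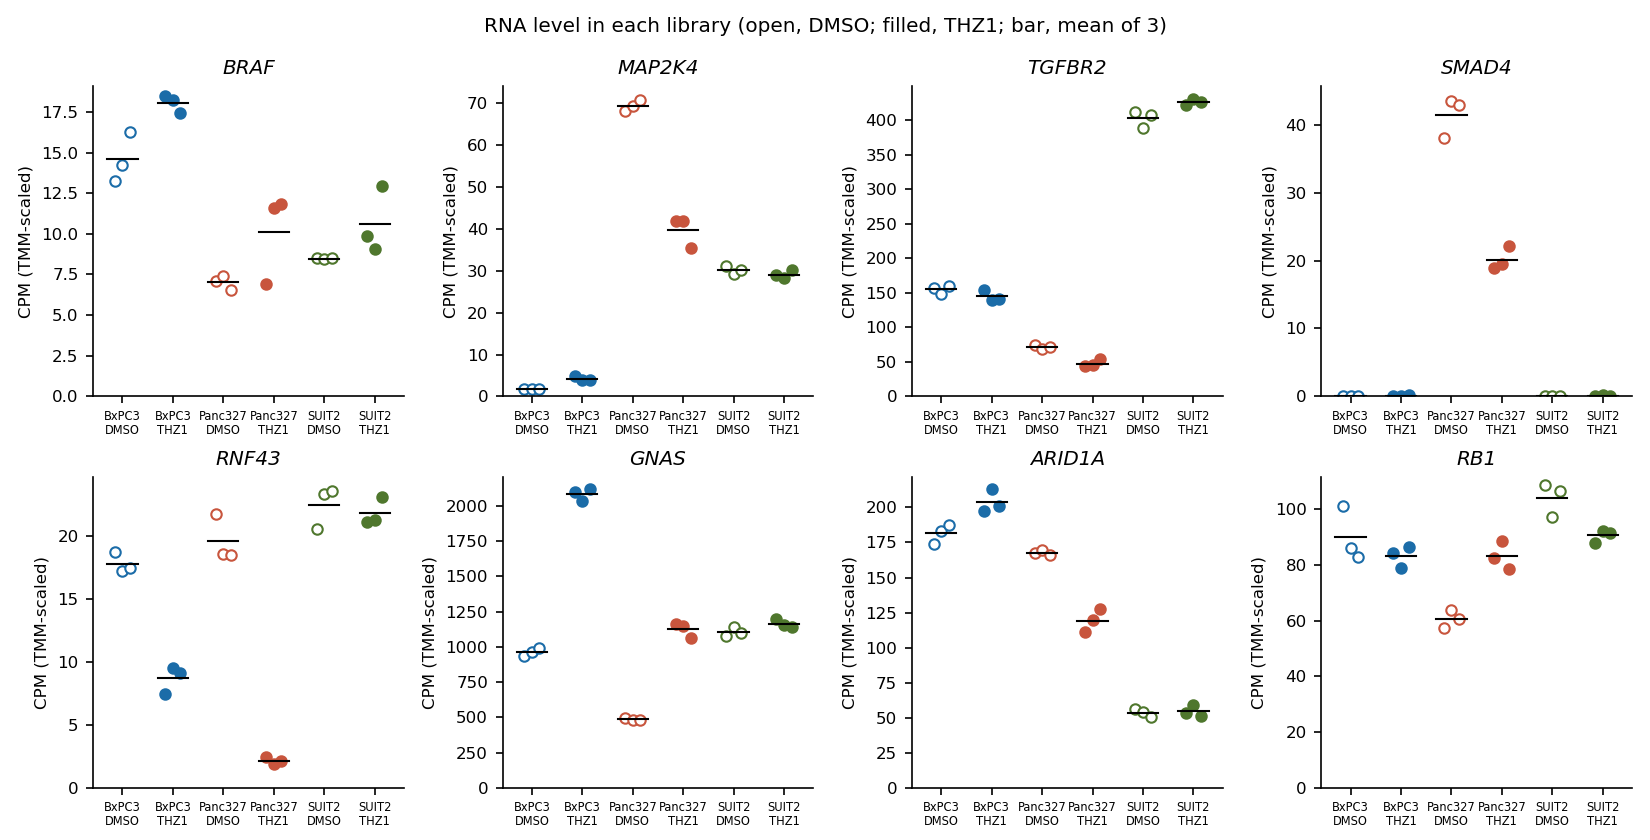
RNA level of each of the 8 genes in each of the 18 libraries, in CPM after TMM scaling, by line and treatment; open points are DMSO, filled points THZ1, and bars the mean of 3. SMAD4 was at 38.02 to 43.5 CPM in Panc327 with DMSO and at 0 to 0.166 CPM in every BxPC3 and SUIT2 library.

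**Figure D2:**
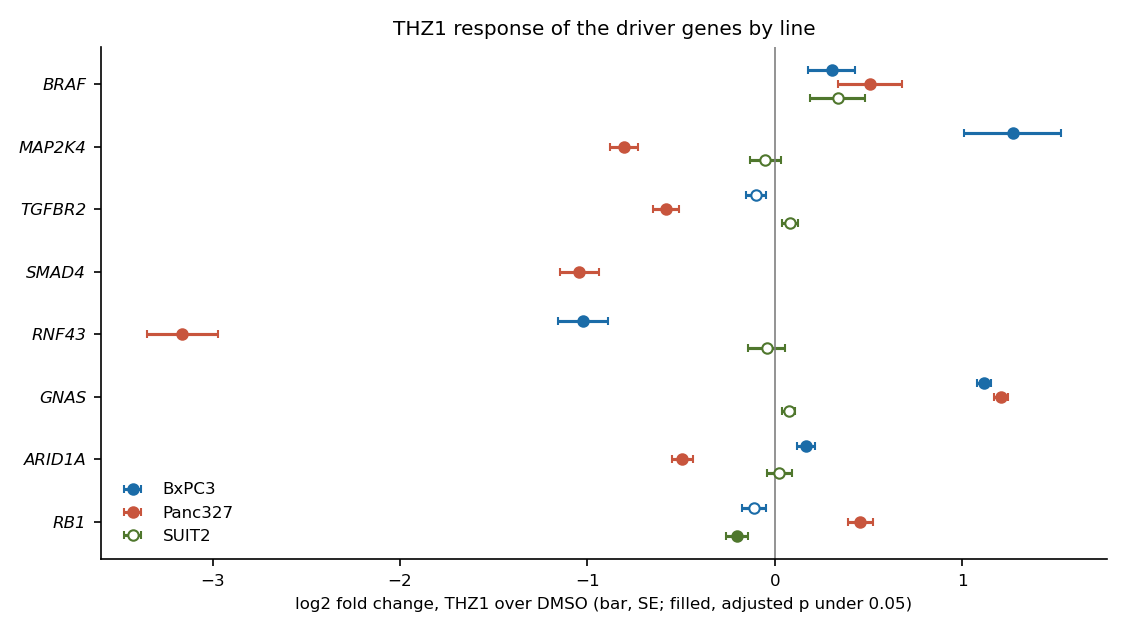
Log2 fold change of THZ1 over DMSO for each gene in each line; bars are the SE and filled points have an adjusted p under 0.05. RNF43 fell by 3.16 in Panc327 and by 1.02 in BxPC3, GNAS rose in both of these lines by 1.21 and 1.12, and MAP2K4 rose by 1.27 in BxPC3 and fell by 0.81 in Panc327; BRAF and ARID1A in BxPC3 turned to -0.093 and -0.23 with library sizes alone, and SMAD4 is drawn for Panc327 only.

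BRAF (GRCh38, chr7:140719327-140924928, minus strand) was higher in BxPC3 than in the other lines. In BxPC3 its level was 13.3, 14.3 and 16.3 CPM with DMSO and 18.5, 18.2 and 17.4 CPM with THZ1. In Panc327 it was 7.09, 7.40 and 6.55 CPM with DMSO and 6.94, 11.6 and 11.8 CPM with THZ1. In SUIT2 it was 8.50, 8.42 and 8.51 CPM with DMSO and 9.86, 9.08 and 13.0 CPM with THZ1. The 3 treated BxPC3 libraries lay above the controls, the first treated Panc327 library lay within the controls of that line while the other 2 lay above them, and the SUIT2 groups did not overlap.

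The change in BRAF with THZ1 was 0.30 ± 0.13 (log2, SE) in BxPC3 with an adjusted p of 0.0295, and 0.51 ± 0.17 in Panc327 with an adjusted p of 0.00599. In SUIT2 it was 0.33 ± 0.15 and was not called (adjusted p = 0.119). The 3 changes did not differ detectably from each other: the difference of Panc327 and BxPC3 was 0.20 with a 95% interval of -0.21 to 0.62 (adjusted p = 0.495), that of SUIT2 and BxPC3 0.03 (-0.35 to 0.41, adjusted p = 0.939), and that of Panc327 and SUIT2 0.17 (-0.27 to 0.61, adjusted p = 0.535). The call in BxPC3 was lost without DMSO replicate 1 (0.24), DMSO replicate 2 (0.28), THZ1 replicate 1 (0.28) or THZ1 replicate 2 (0.29) and with no filter (0.27), and the value was -0.093 with library sizes alone. The call in Panc327 was lost without THZ1 replicate 2 (0.40) or THZ1 replicate 3 (0.37) and with library sizes alone (0.18). With that scaling the difference of Panc327 and SUIT2 turned to -0.14 and was not called either. With DMSO, BRAF was lower than in BxPC3 by 1.06 ± 0.14 in Panc327 (-1.06, adjusted p = 9.11e-11) and by 0.79 ± 0.14 in SUIT2 (-0.79, adjusted p = 2.64e-07).

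BRAF was lower than its relative ARAF in every line. Per kb of exon with DMSO it was at 1.01 CPM in BxPC3, 0.487 in Panc327 and 0.589 in SUIT2, where ARAF was at 13.2, 10.5 and 21.3. Per kb of the longest coding sequence the values in BxPC3 were 6.03 for BRAF and 22.6 for ARAF, in the same order. ARAF fell with THZ1 in BxPC3, at -0.22 ± 0.090 (log2, SE, adjusted p = 0.0234), a call that was lost without DMSO replicate 2 (-0.16) or THZ1 replicate 3 (-0.15) and with RLE size factors or DESeq2 (each -0.18), and its change in Panc327 was 0.0090 ± 0.096, or -0.32 with library sizes alone. The gene NDUFB2 on the other strand overlaps BRAF at its 3′ end and rose with THZ1 by 1.13 in BxPC3 and 1.28 in Panc327 (log2), and whether the counting used strand is not given, so reads of the overlap cannot be told apart.

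Of 19 other genes of the RAF-MEK-ERK cascade, 10 rose and 4 fell with THZ1 in BxPC3 and 12 rose and 4 fell in Panc327. Among all genes, 35.2% rose and 34.1% fell in BxPC3, and 35.6% and 37.8% in Panc327. The median changes of the 19 were 0.15 and 0.36 (log2), beside 0 and -0.01 over all genes. In SUIT2, 0 of 19 were called. MAP2K1, which encodes MEK1, rose by 0.92 ± 0.048 in BxPC3 and 0.93 ± 0.057 in Panc327 (log2, SE), and PEBP1, an inhibitor of the cascade, rose by 1.04 and 1.01. The counts with library sizes alone were 7 higher and 10 lower in BxPC3 and 6 higher and 7 lower in Panc327, and without BxPC3 DMSO replicate 2 the 4 lower genes of BxPC3 became 2.

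MAP2K4 (GRCh38, chr17:12020824-12143830, plus strand) differed more between lines than any of the other 6 genes that had counts in all of them. In BxPC3 it had 15, 15 and 15 counts with DMSO, or 1.83, 1.70 and 1.71 CPM, and 27, 22 and 24 counts with THZ1, or 4.80, 3.89 and 3.99 CPM. In Panc327 it was at 68.2, 69.4 and 70.6 CPM with DMSO and at 41.8, 41.8 and 35.3 CPM with THZ1. The SUIT2 libraries stood at 31.1, 29.3 and 30.1 CPM with DMSO and 28.9, 28.2 and 30.1 CPM with THZ1. The lines did not overlap in either treatment, and within BxPC3 and Panc327 the treatments did not overlap.

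With DMSO, MAP2K4 was 39.5-fold higher in Panc327 than in BxPC3 (log2 5.30 ± 0.13, SE, adjusted p = 2.00e-58) and 17.2-fold higher in SUIT2 (4.10 ± 0.15, adjusted p = 1.46e-43). THZ1 moved it in opposite directions in 2 lines. It rose in BxPC3 by 1.27 ± 0.26 (adjusted p = 9.31e-06), from 45 counts over the 3 DMSO libraries, and fell in Panc327 by 0.81 ± 0.075 (adjusted p = 5.19e-17). In SUIT2 the change was -0.05 ± 0.083 with a 95% interval of -0.21 to 0.11. The differences between the lines passed the test, at -2.07 ± 0.27 for Panc327 minus BxPC3, -1.32 ± 0.27 for SUIT2 minus BxPC3 and -0.75 ± 0.11 for Panc327 minus SUIT2 (adjusted p = 4.65e-10, 1.70e-05 and 7.98e-09). Over all genes the 3 differences were called for 36.3% (14.1% higher and 22.2% lower), 54.9% (27.6% and 27.3%) and 60.7% (28.3% and 32.4%), and 5 of 7, 4 of 7 and 6 of 7 of the driver genes were called. The 3 differences share their lines.

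The neighbours of MAP2K4 differed in whether they shared its low level in BxPC3. ZNF18, which lies 23.3 kb away, was at 7.38 CPM in BxPC3, 11.2 in Panc327 and 6.42 in SUIT2 with DMSO, and ELAC2, 849 kb away on the other side and the farther of its tested genes, was at 112, 234 and 96.8 CPM. ARHGAP44, 646 kb away and the nearest tested gene on that side, followed the order of MAP2K4, with 0.349 CPM in BxPC3, 10.6 in Panc327 and 3.16 in SUIT2. The other three neighbours, SHISA6, DNAH9 and MYOCD, had at most 5 counts over the 3 DMSO libraries of any line. MIR744 lies inside MAP2K4 on the same strand, and reads of that stretch cannot be told apart.

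The other kinase of this step, MAP2K7, did not follow MAP2K4. Per kb of exon with DMSO it was at 10.6, 9.78 and 13.2 CPM in BxPC3, Panc327 and SUIT2, where MAP2K4 was at 0.451, 17.9 and 7.80, so MAP2K7 was the higher of the pair in BxPC3 and SUIT2 and MAP2K4 in Panc327. MAP2K7 fell with THZ1 in BxPC3 by 0.84 ± 0.10 (log2, SE) and in Panc327 by 1.45 ± 0.12. With THZ1, 35.2% of all genes rose and 34.1% fell in BxPC3, and 35.6% and 37.8% in Panc327. Of 23 tested genes of the JNK and p38 cascade, 8 rose and 8 fell in BxPC3 and 8 rose and 9 fell in Panc327. Their medians were -0.02 and 0.15, beside 0 and -0.01 over all genes. DUSP16, a phosphatase of JNK, fell by 2.48 ± 0.17 in BxPC3 and changed by -1.7995 ± 0.090 in Panc327. Library sizes alone gave counts of 2 higher and 14 lower in BxPC3 and 5 higher and 11 lower in Panc327.

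TGFBR2 (GRCh38, chr3:30606502-30694142, plus strand) was highest in SUIT2 and lowest in Panc327. In SUIT2 it was at 411, 389 and 408 CPM with DMSO and at 422, 430 and 426 CPM with THZ1. In BxPC3 the values were 156, 149 and 160 CPM with DMSO and 154, 139 and 141 CPM with THZ1. In Panc327 they were 73.9, 68.1 and 71.2 CPM with DMSO and 43.6, 45.7 and 53.5 CPM with THZ1. The lines did not overlap, and the treatments overlapped in BxPC3 only.

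With DMSO, SUIT2 stood above BxPC3 by 1.38 ± 0.045 (log2, SE, adjusted p = 3.22e-47) and Panc327 below BxPC3, at -1.13 ± 0.053 (adjusted p = 1.29e-35). THZ1 lowered TGFBR2 in Panc327, by 0.58 ± 0.069 (adjusted p = 1.797e-12), or to -0.91 with library sizes alone. In BxPC3 the change was -0.10 ± 0.051 (adjusted p = 0.0709), which was called without DMSO replicate 2 (-0.13) or THZ1 replicate 1 (-0.15), with no filter (-0.13), with only the groups compared (-0.15) and, at -0.50, with library sizes alone. In SUIT2 it was 0.08 ± 0.042 (adjusted p = 0.193). The Panc327 change was below that of BxPC3 by 0.48 ± 0.086 (-0.48, adjusted p = 2.55e-06) and below that of SUIT2 by 0.66 ± 0.081 (-0.66, adjusted p = 9.39e-12). SUIT2 and BxPC3 differed by 0.18 ± 0.066 (adjusted p = 0.0139), a call that was lost without BxPC3 DMSO replicate 3 (0.16), THZ1 replicate 2 (0.16) or THZ1 replicate 3 (0.16), with RLE size factors (0.14) and with DESeq2 (0.14). The difference was 0.56 with library sizes alone.

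The partner receptor TGFBR1 had the opposite order of lines. Per kb of exon with DMSO it was at 8.16, 20.04 and 6.49 CPM in BxPC3, Panc327 and SUIT2, where TGFBR2 was at 32.98, 15.1 and 85.6. TGFBR1 rose with THZ1 by 0.50 ± 0.068 in BxPC3, by 0.25 ± 0.055 in Panc327 and by 0.24 ± 0.071 in SUIT2 (log2, SE), while TGFBR2 was called higher in none of the 3 lines. With library sizes alone the TGFBR1 values were 0.11 in BxPC3 and -0.078 in Panc327, and the SUIT2 call was lost without DMSO replicate 3 (0.17) or THZ1 replicate 1 (0.22).

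SMAD4 (GRCh38, chr18:51028394-51085045, plus strand) was counted in 1 line. Panc327 had 343, 406 and 393 counts with DMSO, or 38.02, 43.5 and 42.9 CPM, and 109, 94 and 112 counts with THZ1, or 18.9, 19.4 and 22.1 CPM. BxPC3 had 0, 0 and 0 counts with DMSO and 0, 0 and 1 with THZ1. SUIT2 had 0, 0 and 0 counts with DMSO and 0, 1 and 1 with THZ1. The 3 DMSO libraries of BxPC3 together allow a level of up to 0.116 CPM and those of SUIT2 up to 0.118 CPM, taking 3 counts over the group as the limit that a count of 0 allows, which covers counting error only. Against this limit SMAD4 was at least 358-fold higher in Panc327 than in BxPC3 and at least 353-fold higher than in SUIT2 (adjusted p = 9.35e-50 and 9.22e-50). In Panc327 THZ1 lowered it by 1.04 ± 0.10 (log2, SE, adjusted p = 1.98e-15), and no treated library overlapped a control. In BxPC3 and SUIT2 no change could be measured.

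The genes beside SMAD4 separated the 2 lines without SMAD4 counts. In BxPC3 the neighbours ME2 (74.1 kb before it), ELAC1 (40.3 kb before it) and MEX3C (89.5 kb after it) had 1, 0 and 0 counts over the 3 DMSO libraries. SUIT2 had 1105, 117 and 626 counts of these genes, at 43.4, 4.56 and 24.6 CPM, and Panc327 had 1675, 231 and 1030, at 60.9, 8.40 and 37.4 CPM. Counts were thus at 0 or 1 for SMAD4 and 3 neighbours in BxPC3, and at 0 for SMAD4 alone among these 4 genes in SUIT2. Farther out, MBD2, at a distance of 3067 kb, was at 86.1 CPM in BxPC3, 54.5 in Panc327 and 46.5 in SUIT2, and MRO and DCC had at most 4 counts per line. BxPC3 is known as a line with a homozygous loss of SMAD4, which is background and was not read from these counts.

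**Figure D3:**
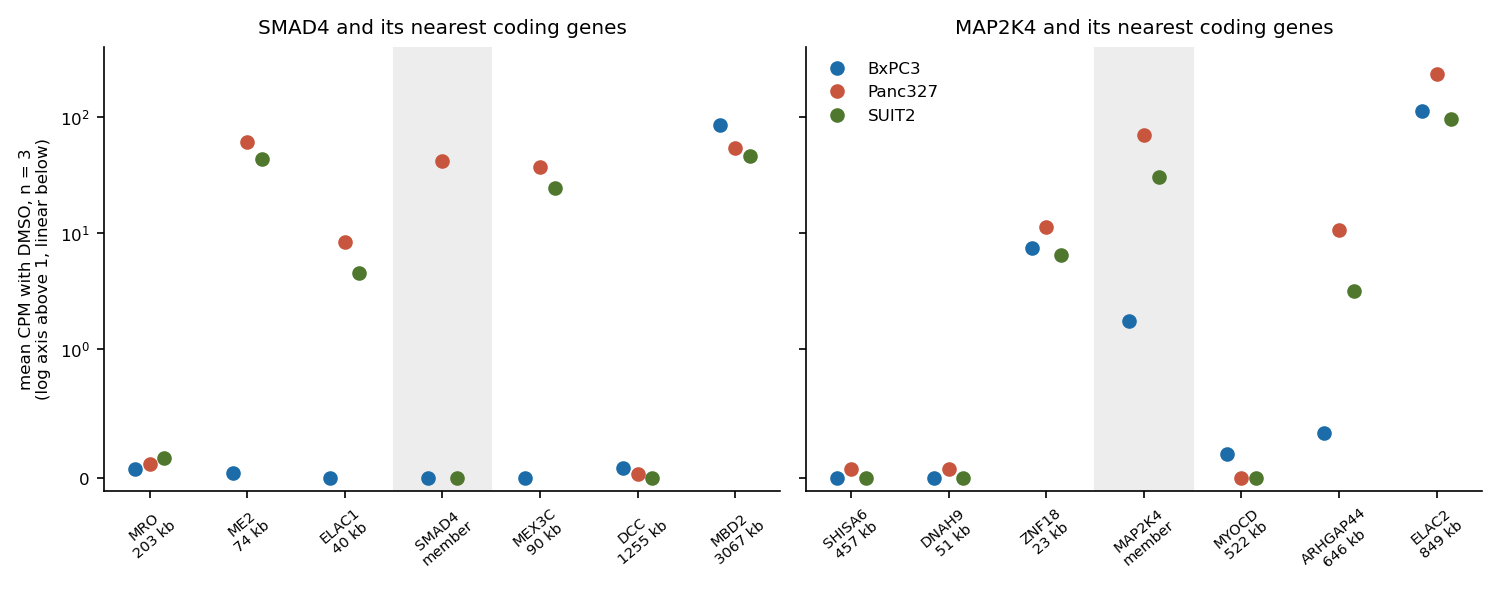
Mean level with DMSO, in CPM (log axis above 1, linear below, n = 3), of SMAD4 and MAP2K4 and of the 3 nearest coding genes on either side, in order along the chromosome with the distance from the gene. ME2, ELAC1 and MEX3C lie at 0 to 0.0406 CPM in BxPC3 and at 4.56 to 60.9 CPM in the other lines, while ZNF18 beside MAP2K4 lies at 6.42 to 11.2 CPM in all 3 lines.

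The SMAD proteins that partner with SMAD4 were counted in every line. SMAD3 was at 240 ± 6.86 CPM in BxPC3, 117 ± 1.70 in Panc327 and 320 ± 6.04 in SUIT2 with DMSO (SD, n = 3), so the 2 lines without SMAD4 counts had the higher SMAD3 level. SMAD3 rose with THZ1 by 0.94 ± 0.047 in Panc327 (log2, SE), while SMAD4 fell there, and by 0.27 ± 0.043 in BxPC3, a value that turned to -0.13 with library sizes alone. SMAD2 was at 68.7 ± 3.78, 41.4 ± 1.23 and 37.5 ± 2.56 CPM. Whether SMAD4 or SMAD2 was higher in Panc327 depended on the length used, with 4.66 against 1.17 CPM per kb of exon and 25.0 against 29.6 CPM per kb of coding sequence.

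Of 25 other genes of TGF-beta signalling, 11 rose and 7 fell with THZ1 in BxPC3 and 8 rose and 11 fell in Panc327. Among all genes, 35.2% rose and 34.1% fell in BxPC3, and 35.6% and 37.8% in Panc327. The medians of the list were 0.09 and -0.14 (log2), beside 0 and -0.01 over all genes. SMAD7, an inhibitor of the receptors, rose in both lines, by 1.13 ± 0.14 in BxPC3 and 1.35 ± 0.072 in Panc327 (log2, SE). SMAD1, which answers BMP receptors, fell by 1.43 ± 0.17 in Panc327, and TGIF1, a repressor of SMAD targets, fell there by 1.33 ± 0.086. Scaled to library sizes alone, the counts were 6 higher and 12 lower in BxPC3 and 4 higher and 15 lower in Panc327, and with RLE size factors 8 and 7 in Panc327.

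RNF43 (GRCh38, chr17:58352500-58417595, minus strand) had similar levels in the 3 lines with DMSO and very different ones with THZ1. In Panc327 it was at 21.7, 18.5 and 18.4 CPM with DMSO and at 2.43, 1.86 and 2.17 CPM with THZ1, which is 14, 9 and 11 counts. In BxPC3 it was at 18.7, 17.2 and 17.4 CPM with DMSO and 7.47, 9.55 and 9.14 CPM with THZ1. The SUIT2 libraries stood at 20.5, 23.3 and 23.5 CPM with DMSO and 21.1, 21.3 and 23.0 CPM with THZ1. The treatments overlapped in SUIT2 and were apart in the other two lines, and every treated Panc327 library lay below every other library of the series.

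The fall in RNF43 was 3.16 ± 0.19 in Panc327 (log2, SE, adjusted p = 7.71e-28), which left 0.112 of the DMSO level, and 1.02 ± 0.14 in BxPC3 (adjusted p = 1.11e-10), which left 0.492. In SUIT2 the change was -0.04 ± 0.097 with a 95% interval of -0.24 to 0.15. All 3 differences between lines passed the test, at -2.14 ± 0.26 for Panc327 minus BxPC3, 0.98 ± 0.17 for SUIT2 minus BxPC3 and -3.12 ± 0.22 for Panc327 minus SUIT2 (adjusted p = 7.20e-11, 3.78e-07 and 1.37e-22). With DMSO, SUIT2 was above BxPC3 by 0.34 ± 0.10 (adjusted p = 0.00163), and Panc327 and BxPC3 differed by 0.14 ± 0.10 (adjusted p = 0.206, 95% interval -0.06 to 0.34). Panc327 lay below SUIT2 at -0.20 ± 0.098 (adjusted p = 0.0515), which was called without Panc327 DMSO replicate 1 (-0.29) or SUIT2 DMSO replicate 1 (-0.26), with library sizes alone (-0.24), with no filter (-0.22), with voom (-0.20) and with only the groups compared (-0.20). SUPT4H1 overlaps the 3′ end of RNF43 on the same strand, and its change with THZ1 was 0.18 in BxPC3, 0.24 in Panc327 and -0.08 in SUIT2 (log2).

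ZNRF3, the closest relative of RNF43 with the same role at Frizzled receptors, fell in the same 2 lines. Its change was -0.70 ± 0.12 in BxPC3, -1.10 ± 0.089 in Panc327 and -0.05 ± 0.096 in SUIT2 (log2, SE), the last of which was not called (adjusted p = 0.826). With THZ1, 35.2% of all genes rose and 34.1% fell in BxPC3, and 35.6% and 37.8% in Panc327. Of 28 tested genes of Wnt reception and beta-catenin control, 5 rose and 10 fell in BxPC3 and 4 rose and 16 fell in Panc327. The medians were -0.14 and -0.47, beside 0 and -0.01 over all genes, so the change of RNF43 lay beyond the median of the list in both lines. Among the Frizzled receptors themselves, FZD8 fell by 2.33 ± 0.15 and FZD5 by 1.38 ± 0.12 in BxPC3, and FZD1 fell by 2.53 ± 0.077, FZD7 by 1.87 ± 0.11 and FZD2 by 1.62 ± 0.17 in Panc327. These receptors were picked by the size of their change among called genes with at least 10 CPM. FZD6 alone among the tested Frizzled genes lay above 0 in both lines, at 0.21 in BxPC3 and 0.30 in Panc327. The counts of the list with library sizes alone were 1 higher and 23 lower in BxPC3 and 2 higher and 20 lower in Panc327.

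GNAS (GRCh38, chr20:58839718-58911192, plus strand) had the highest level per kb of the 8 genes in every line, and it rose with THZ1 in 2 lines. In BxPC3 it was at 932, 963 and 988 CPM with DMSO and at 2098, 2032 and 2118 CPM with THZ1. In Panc327 it was at 498, 485 and 478 CPM with DMSO and at 1161, 1148 and 1065 CPM with THZ1. In SUIT2 it was at 1079, 1139 and 1101 CPM with DMSO and at 1199, 1152 and 1141 CPM with THZ1. The 3 treated libraries lay above the 3 controls in every line, but the change in SUIT2 did not pass the test.

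The rise in GNAS was 1.12 ± 0.036 in BxPC3 (log2, SE, adjusted p = 1.01e-46), or 2.17-fold, and 1.21 ± 0.037 in Panc327 (adjusted p = 4.33e-48), or 2.31-fold. With library sizes alone the values were 0.72 and 0.88, and both calls held. In SUIT2 the change was 0.07 ± 0.036 (adjusted p = 0.162). The rise in SUIT2 was smaller than in BxPC3, with a difference of -1.04 ± 0.050 (adjusted p = 1.02e-32), or -0.66 with library sizes alone, and Panc327 exceeded SUIT2 by 1.13 ± 0.051 (adjusted p = 4.46e-35). Panc327 and BxPC3 differed by 0.09 ± 0.051 (adjusted p = 0.159, 95% interval -0.01 to 0.19), which was called without Panc327 THZ1 replicate 3 (0.13), with RLE size factors (0.17), with DESeq2 (0.17), with only the groups compared (0.23) and with library sizes alone (0.16). With DMSO, GNAS was lower in Panc327 than in BxPC3, at -0.98 ± 0.037 (adjusted p = 1.05e-42), and higher in SUIT2, at 0.20 ± 0.036 (adjusted p = 3.32e-07). The counts pool transcripts from several start sites of this imprinted locus, and reads of the antisense gene GNAS-AS1 cannot be told apart where the 2 overlap.

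GNAL, the gene of the olfactory relative of this G protein subunit, was far lower per length and fell where GNAS rose. Per kb of exon with DMSO it was at 0.304, 0.374 and 0.722 CPM in BxPC3, Panc327 and SUIT2, where GNAS was at 122, 61.9 and 141. GNAL fell with THZ1 by 1.98 ± 0.45 in BxPC3 and fell by 1.55 ± 0.39 in Panc327 (log2, SE). These falls rest on few counts. GNAL with THZ1 was at 0.576 ± 0.077 CPM in BxPC3 and 0.929 ± 0.490 CPM in Panc327 (SD, n = 3). There 1 count was worth 0.166 to 0.178 CPM in BxPC3 and 0.174 to 0.207 CPM in Panc327. Among all genes, 35.2% rose and 34.1% fell in BxPC3, and 35.6% and 37.8% in Panc327. Of 25 tested genes of G proteins, adenylyl cyclases and protein kinase A, 11 rose and 6 fell in BxPC3 and 13 rose and 8 fell in Panc327. Their medians were 0.20 and 0.34, beside 0 and -0.01 over all genes. GNB1, a beta subunit that pairs with G alpha proteins, rose by 0.996 ± 0.041 in Panc327, and CREB1, the transcription factor that protein kinase A phosphorylates, fell by 2.17 ± 0.11 in BxPC3 and by 1.87 ± 0.11 in Panc327. Library sizes alone gave counts of 7 higher and 12 lower in BxPC3 and 10 higher and 9 lower in Panc327, and with RLE size factors 5 were lower in Panc327.

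ARID1A (GRCh38, chr1:26693236-26782110, plus strand) was low in SUIT2 and fell with THZ1 in Panc327, while its direction in BxPC3 depended on the scaling (0.17 with TMM and -0.23 with library sizes alone). In BxPC3 it was at 174, 183 and 188 CPM with DMSO and at 198, 213 and 201 CPM with THZ1. In Panc327 it was at 168, 170 and 166 CPM with DMSO and at 111, 120 and 127 CPM with THZ1. The SUIT2 libraries stood at 56.5, 53.8 and 50.7 CPM with DMSO and at 53.1, 59.3 and 51.4 CPM with THZ1. The SUIT2 libraries lay below all others, and within BxPC3 and Panc327 the treatments did not overlap.

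With DMSO, ARID1A was lower in SUIT2 than in BxPC3, at -1.76 ± 0.057 (log2, SE, adjusted p = 9.87e-48), and than in Panc327, which stood above SUIT2 by 1.65 ± 0.057 (adjusted p = 1.87e-45). Panc327 and BxPC3 differed by -0.12 ± 0.049 (adjusted p = 0.0269), a call that was lost without BxPC3 DMSO replicate 2 (-0.11) or 3 (-0.10) or Panc327 DMSO replicate 1 (-0.12) or 3 (-0.11), and with RLE size factors, library sizes alone or DESeq2 (each -0.10). THZ1 lowered ARID1A in Panc327 by 0.49 ± 0.055 (adjusted p = 1.28e-13), or to -0.82 with library sizes alone. In BxPC3 it was higher by 0.17 ± 0.050 relative to the median gene (adjusted p = 0.00246) and lower, at -0.23, with library sizes alone. In SUIT2 the change was 0.02 ± 0.067 with a 95% interval of -0.11 to 0.15. Panc327 differed from BxPC3 by -0.66 ± 0.074 (adjusted p = 2.29e-12) and from SUIT2 by -0.52 ± 0.086 (adjusted p = 1.65e-07), the latter -0.83 with library sizes alone. The difference of SUIT2 and BxPC3 was -0.14 ± 0.083 (adjusted p = 0.142), which was called without SUIT2 THZ1 replicate 2 (-0.20) and with RLE size factors (-0.19) and turned to 0.24 with library sizes alone.

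ARID1B, which takes the place of ARID1A in the complex, was also lowest in SUIT2. Per kb of exon with DMSO it was at 6.22, 7.001 and 1.81 CPM in BxPC3, Panc327 and SUIT2, beside 18.7, 17.3 and 5.53 for ARID1A, so the order of BxPC3 and Panc327 differed between the genes and ARID1A was the higher of the pair in each line. ARID1B also fell with THZ1 in Panc327, by 0.68 ± 0.071 (log2, SE), and its change in BxPC3 was 0.08 ± 0.066, or -0.31 with library sizes alone. With THZ1, 35.2% of all genes rose and 34.1% fell in BxPC3, and 35.6% and 37.8% in Panc327. Of 24 tested genes of SWI/SNF subunits, 8 rose and 10 fell in BxPC3 and 7 rose and 11 fell in Panc327, with medians of -0.02 and -0.10. Among called genes with a group mean of at least 10 CPM, the largest falls were those of GLTSCR1L and GLTSCR1, subunits of the BRD9-containing form of the complex, by 2.01 ± 0.18 and 1.47 ± 0.17 in BxPC3 and by 2.28 ± 0.19 and 2.19 ± 0.17 in Panc327. GLTSCR1L also fell in SUIT2, by 0.58 ± 0.12 (adjusted p = 0.000393). Scaled to library sizes alone, the counts were 1 higher and 18 lower in BxPC3 and 3 higher and 16 lower in Panc327.

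RB1 (GRCh38, chr13:48303726-48599436, plus strand) varied least among the 8 genes, with 1.72-fold between the highest and the lowest group mean. In SUIT2 it was at 109, 97.3 and 106 CPM with DMSO and at 88.0, 92.1 and 91.6 CPM with THZ1. In BxPC3 it was at 101, 86.2 and 83.0 CPM with DMSO and at 84.3, 78.8 and 86.4 CPM with THZ1. In Panc327 it was at 57.4, 63.8 and 60.7 CPM with DMSO and at 82.4, 88.8 and 78.7 CPM with THZ1. The treated libraries of Panc327 lay above its controls, those of SUIT2 below its controls, and those of BxPC3 overlapped them, so that the 3 lines were closer together with THZ1 than with DMSO.

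THZ1 raised RB1 in Panc327 by 0.46 ± 0.069 (log2, SE, adjusted p = 6.14e-09), or 0.13 with library sizes alone (adjusted p = 0.0811). It was lower in SUIT2 by 0.20 ± 0.059 (-0.20, adjusted p = 0.0116), a call that was lost without DMSO replicate 1 (-0.17) or DMSO replicate 3 (-0.19), which left 0 of the 7 genes called in that line. In BxPC3 the change was -0.11 ± 0.064 (adjusted p = 0.113), which was called without DMSO replicate 3 (-0.17), with no filter (-0.14), with only the groups compared (-0.16) and, at -0.51, with library sizes alone. Panc327 differed from BxPC3 by 0.57 ± 0.094 (adjusted p = 4.01e-07) and from SUIT2 by 0.66 ± 0.090 (adjusted p = 6.49e-10), the latter 0.35 with library sizes alone. The difference of SUIT2 and BxPC3 was -0.09 ± 0.087 (adjusted p = 0.404) and turned to 0.29 with library sizes alone. With DMSO, RB1 was lower in Panc327 than in BxPC3 (-0.57 ± 0.063, adjusted p = 9.39e-14) and in SUIT2 (-0.78 ± 0.062, adjusted p = 7.28e-21), and higher in SUIT2 than in BxPC3 (0.21 ± 0.059, adjusted p = 0.000814), where the library ranges overlapped.

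LPAR6, a receptor gene that lies within RB1 on the other strand, had 0 counts in Panc327 with DMSO, beside 183 in BxPC3 and 130 in SUIT2 over 3 libraries, or 7.09 ± 0.269 and 5.12 ± 0.645 CPM (SD, n = 3). RCBTB2, which also overlaps RB1 on the other strand, was at 9.16, 5.49 and 7.57 CPM in BxPC3, Panc327 and SUIT2. Both were far below RB1, and reads of the overlaps cannot be told apart.

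The relatives of RB1 split with THZ1. RBL1, which encodes p107, fell by 1.17 ± 0.080 in BxPC3 and fell by 1.44 ± 0.091 in Panc327 (log2, SE), with -0.09 ± 0.070 in SUIT2 (adjusted p = 0.403). RBL2, which encodes p130, had the same signs as RB1 in Panc327 and SUIT2, at 0.42 ± 0.066 and -0.17 ± 0.058, and its change in BxPC3 was 0.05 ± 0.063, or -0.35 with library sizes alone. The Panc327 call of RBL2 was lost with library sizes alone (0.092). The SUIT2 call of RBL2 was lost without DMSO replicate 1 (-0.16) or 3 (-0.14) or THZ1 replicate 1 (-0.14) or 2 (-0.18). Per kb of exon with DMSO, RB1 was at 17.98, 12.1 and 20.8 CPM in BxPC3, Panc327 and SUIT2, RBL1 at 11.8, 9.82 and 9.48 and RBL2 at 15.6, 12.03 and 17.9. Among all genes, 35.2% rose and 34.1% fell with THZ1 in BxPC3, and 35.6% and 37.8% in Panc327. Of 30 tested genes of the RB family, E2F factors and G1 cyclins, 6 rose and 14 fell in BxPC3 and 9 rose and 18 fell in Panc327. Their medians were -0.23 and -0.64, beside 0 and -0.01 over all genes. E2F1, a factor that RB1 binds, fell by 1.87 ± 0.091 in BxPC3 and fell by 2.02 ± 0.099 in Panc327, and the CDK inhibitor gene CDKN2D rose by 2.13 ± 0.20 in BxPC3. The counts with library sizes alone were 2 higher and 23 lower in BxPC3 and 6 higher and 22 lower in Panc327.

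**Figure D4:**
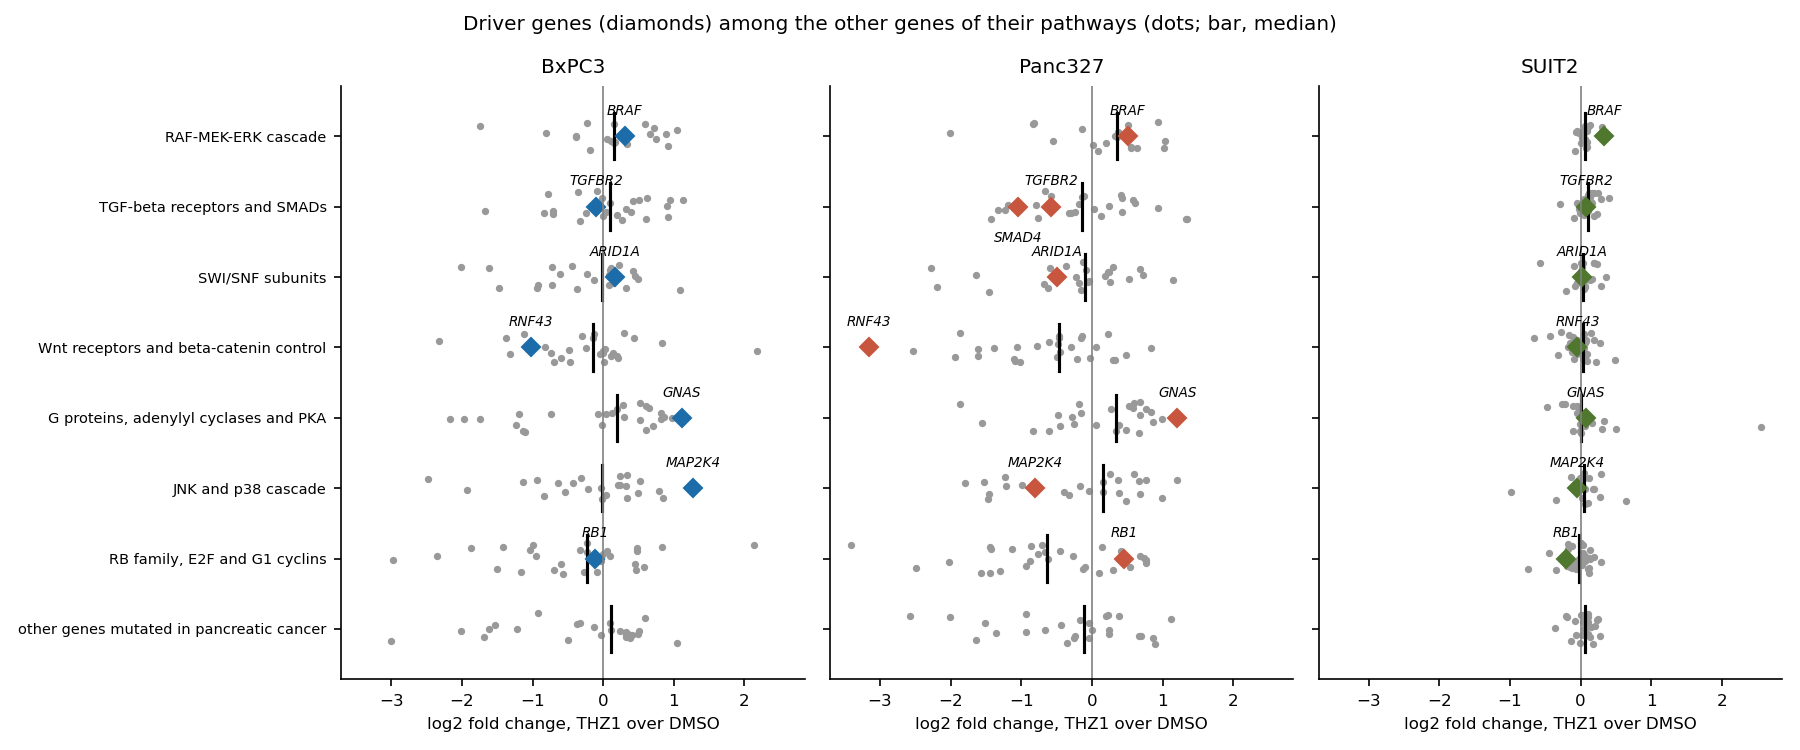
Log2 fold change of THZ1 over DMSO in each line for the tested genes of 8 lists (dots), their median (bar) and the 8 driver genes (diamonds, named). RNF43 lies at -3.16 in Panc327 beside a list median of -0.47, RB1 at 0.46 beside -0.64, and in SUIT2 the medians of all 8 lists lie between -0.03 and 0.10.

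In SUIT2 few genes of the lists were called. They were 4 higher and 3 lower of 28 in the Wnt list, 3 and 1 of 25 in the TGF-beta list, 3 and 2 of 24 in the SWI/SNF list, 2 and 3 of 30 in the RB list, 1 and 2 of 25 in the G protein list and 1 and 2 of 23 in the JNK and p38 list, where 14.6% of all genes were called. Without single SUIT2 libraries the higher counts went down to 1, 0, 2, 0, 0 and 0 and the lower counts to 2, 0, 1, 1, 0 and 1 in this order. The libraries concerned were DMSO replicates 1, 2 and 3 and THZ1 replicates 1, 2 and 3, each in at least 1 list. LRP5, a coreceptor of Wnt, fell by 0.28 ± 0.046 (log2, SE, adjusted p = 2.08e-06), and E2F1 fell by 0.21 ± 0.054 (adjusted p = 0.00325).

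A further list held 26 tested genes that are also mutated in pancreatic cancer. ARID2, PBRM1, SMARCA4, ACVR1B, TGFBR1 and NF1 among them also count in the lists above. Of the 26, 11 rose and 9 fell with THZ1 in BxPC3, and 10 rose and 12 fell in Panc327. Their medians were 0.11 and -0.11, beside 0 and -0.01 over all genes. Among all genes, 35.2% rose and 34.1% fell in BxPC3, and 35.6% and 37.8% in Panc327. The DNA repair gene BRCA2 fell in both lines, by 1.68 ± 0.098 in BxPC3 and by 2.01 ± 0.12 in Panc327 (log2, SE), and PALB2, whose product binds it, fell by 2.58 ± 0.13 in Panc327. Not all genes of the list fell: FBXW7 was at 1.05 in BxPC3 and 1.12 in Panc327, and ATM was at -0.33 and 0.67. In SUIT2 3 genes of the list rose and 2 fell, among them BRCA1, which fell by 0.37 ± 0.060 (adjusted p = 2.61e-06). Library sizes alone gave counts of 2 higher and 13 lower in BxPC3 and 5 higher and 16 lower in Panc327, and without SUIT2 DMSO replicate 1 or THZ1 replicate 3 the 2 lower genes of SUIT2 became 1.

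The genes whose log2 levels followed each driver gene most closely were found among 10994 genes whose group mean reached 10 CPM at least once, by Pearson's r over the 18 libraries, which share lines and treatments. For GNAS these were PEBP1 (r = 0.997) and GPX1 (0.99), and for RNF43 CSTF1 (0.99) and TADA1 (0.99). For MAP2K4 they were TMEM2 (0.99) and PCGF6 (0.98), and PCGF6 was at 0 CPM in BxPC3 with DMSO and 24.7 CPM in Panc327. IRX2 and ZNF256 (both r = 0.997) were at 0 CPM in BxPC3 and SUIT2, as SMAD4 was with DMSO, and at 31.0 and 15.7 CPM in Panc327 with DMSO. TGFBR2 went with CCNG1 and TCF7L2 (both 0.99), and ARID1A with RND3 (0.997) and USP31 (0.99). The values were lower for BRAF, with ITGA1 and PGM2 (both 0.93), and for RB1, with PDLIM5 (0.92) and SMAD3 (0.89).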

How the data were processed

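RNA levels were taken from the raw counts per gene symbol that the authors deposited for 18 libraries. Per the labels' protocols, poly(A) RNA was extracted with RNeasy kits and made into TruSeq RNA v2 libraries. The submitters' processing notes name bcl2fastq 1.8.4, TopHat2 2.1.0, HTSeq 0.6.1 and hg38; for the annotation and the strand and overlap settings of the counting, the entry is "not given in the sources used here". Summary lines that name no gene held 21.3% to 64.6% of records and were left out.

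Genes with enough counts (filterByExpr, minimum 10 and total 15) were scaled by TMM and fitted with edgeR 4.0.16 (R 4.3.3), quasi-likelihood and robust, with 6 group means over all 18 libraries. P-values were adjusted by Benjamini-Hochberg over 14011 genes, and the SE is the log2 fold change over the root of F. The procedure was tested on simulated data in which few genes changed in a single group. Most genes were called in BxPC3 and Panc327 with THZ1, so the simulation does not test the choice of scaling there. Alternatives were RLE size factors, library sizes alone, no filter, DESeq2 1.42.0, limma voom, only the groups compared, the replicate block and leaving out each library. Per-length levels with coding lengths were added after seeing the data. Positions and exon lengths are from GENCODE 29 on GRCh38.

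The members and lists were chosen with earlier results of these data known. Named were all 8 genes in every comparison, up to 3 called genes per list with the largest change and at least 10 CPM, the closest relatives, the 3 nearest coding genes on either side, and the 2 genes with the highest correlation of log2 CPM (prior count 2). Genes overlapping a member, and LRP5, E2F1 and BRCA1 among the called genes of SUIT2, fall under the same rule. Not every gene that the rule allows is named, and the result of 1 relative is not reported here.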

Additional observations from a re-analysis of the deposited data

Results flagged for a closer look

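The response to THZ1, meaning the log2 fold change over DMSO, was compared between lines by the test of the difference itself (edgeR's quasi-likelihood test, adjusted p under 0.05). Of the 7 genes that could be evaluated, 6 were called in at least 1 of 3 comparisons. Panc327 minus BxPC3 was -2.07 for MAP2K4, -0.48 for TGFBR2, -2.14 for RNF43, -0.66 for ARID1A and 0.57 for RB1. SUIT2 minus BxPC3 was -1.32 for MAP2K4, 0.18 for TGFBR2, 0.98 for RNF43 and -1.04 for GNAS. Panc327 minus SUIT2 was -0.75 for MAP2K4, -0.66 for TGFBR2, -3.12 for RNF43, 1.13 for GNAS, -0.52 for ARID1A and 0.66 for RB1. The 3 comparisons share their lines, so they are not independent. Over all genes 36.3%, 54.9% and 60.7% were called in the same order, beside 5, 4 and 6 of the 7 genes. The share of all genes called in at least 1 of the 3 was not counted, so the 6 of 7 has no like share beside it. For BRAF none of the 3 differences passed the test, and for SMAD4 none could be evaluated.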

How the results depend on the processing

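With library sizes alone, THZ1 values that changed sign were BRAF -0.093, ARID1A -0.23, SMAD3 -0.13, ARID1B -0.31 and RBL2 -0.35 in BxPC3 and ARAF -0.32 and TGFBR1 -0.078 in Panc327. The response differences of SUIT2 and BxPC3 turned to 0.24 for ARID1A and 0.29 for RB1. The uncalled difference of Panc327 and SUIT2 turned from 0.17 to -0.14 for BRAF. Under that scaling the share of calls that were higher went from 50.3% to 77.2% over all genes for SUIT2 minus BxPC3, from 46.7% to 28.1% for Panc327 minus SUIT2 and from 38.9% to 49.2% for Panc327 minus BxPC3 (50.4% with RLE). Of 66 results of the 8 genes, 65 were kept with voom, 63 with DESeq2 and 55 with library sizes alone. RLE, no filter and only the groups compared kept 62 each. Kept means the same call, and the same direction where either value was called. A change of sign between uncalled values counts as kept. Leaving out 1 library kept 500 of 522 values.

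Members called ranged, without 1 library, from 4 to 6 (BxPC3), 7 to 8 (Panc327) and 0 to 1 (SUIT2, 0 without DMSO replicate 1 or 3) for THZ1. The range was 6 to 7 for DMSO Panc327 against BxPC3, 7 to 7 for SUIT2 against BxPC3 and 6 to 7 for Panc327 against SUIT2. It was 5 to 6, 3 to 5 and 6 to 6 for the response differences. All-gene calls in SUIT2 were 2044, or 1348 with DESeq2 and 1353 without SUIT2 DMSO replicate 3. The causes were not tested. Low counts limit MAP2K4 in BxPC3, RNF43 in treated Panc327, SMAD4 outside Panc327, and the relative GNAL in treated BxPC3 and Panc327.

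With the replicate block, members called stayed at 5, 8 and 1 for THZ1 and 5, 4 and 6 for the response differences, and 43 of 43 results kept their call. All-gene calls were 9636, 10221 and 1920 for THZ1. Same-numbered libraries correlated at -0.21 to 0.04 over 9 pairs, and SUIT2 DMSO replicate 1 with THZ1 replicate 2 at 0.17. These are correlations of deviations from means of 3 libraries, which cancel within a group. They therefore cannot decide whether libraries of the same number share a culture or batch.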
